A study of Mus musculus with 6 samples.

Results

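Gm42418, Gm26917 and AY036118 are 3 annotated mouse genes that lie over a copy of the ribosomal RNA (rRNA) unit on chromosome 17. They are 3 of 55450 genes of the GENCODE vM21 annotation. Their members in the data are the reads of 18 to 35 nt found without mismatch on either strand of the longest transcript of any of the 3. These were 39484 to 199651 reads per library, out of 27444822 to 41109988 reads of that length. Only Gm42418 and Gm26917 hold separate reads, because AY036118 lies wholly inside Gm42418. The genes were chosen by their overlap with rRNA and by their read counts in these same libraries, so their levels are a description and carry no test.

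Small RNA was sequenced from whole testis of C57BL/6 mice, as Illumina TruSeq libraries from Trizol RNA of an 18 to 35 nt fraction, with 1 library per group. At 10 days post partum (dpp) the groups were the Dnmt3L knockout (KO), the wild-type (WT) littermates of that line, the Miwi2 KO and the WT littermates of the Miwi2 line, each a pool of 3 mice. At 16.5 days post coitum (dpc) the groups were the Dnmt3L KO and its WT littermates, in pools of 7 or 8 mice. The promoter or allele behind each KO is not given in the sources used here. Dnmt3L is a cofactor of the enzymes that lay down DNA methylation in germ cells, and Miwi2 (gene Piwil4) is a nuclear PIWI protein of fetal male germ cells. Whole testis mixes germ and somatic cells, so fewer cells of a type and less RNA per cell cannot be told apart.

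In mammals, 1 long precursor is cut into the 18S, 5.8S and 28S rRNAs, and the external and internal spacers around them are degraded. Because rRNA is so abundant in every cell, its fragments appear in small RNA libraries, almost all on the rRNA's own strand. PIWI-interacting RNAs (piRNAs) are germ cell small RNAs, longer than miRNAs, that guide PIWI proteins mainly against transposons. Primary piRNAs mostly begin with U. Partners made by the ping-pong cycle overlap at their 5′ ends by 10 nt and often carry A at position 10, across from the U of the partner. Length, strand, first base, base 10 and 5′ end position are therefore given here for each locus.

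The layout decides what each count contains. On build GRCm38, Gm26917 lies at chr17:39843013-39846341 on the plus strand and has a transcript of 3329 nt. The 18S sequence follows 11 bases later, at chr17:39846353-39848201, where GENCODE places the rRNA gene CT010467.1 of 1849 nt. Gm42418 lies at chr17:39846958-39848788 on the plus strand. Its 1831 nt hold 1244 bases of the 18S sequence and the 587 bases after it, where the unit has its internal spacer. Gm26917 lies where the unit has its 5′ external spacer. AY036118, at chr17:39847113-39848035 on the minus strand, is 923 nt long and faces the 18S part of Gm42418. RefSeq lists the 18S sequence as the pseudogene Rn18s-rs5, a name that has Gm42418 as a synonym. All 3 genes are annotated as lincRNA. The plus strand is the strand of the rRNA, although CT010467.1 is annotated on the minus strand, and "opposite strand" below means minus. A read sense to AY036118 is therefore a read opposite to the rRNA.

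The 10 most frequent sequences of a library made up 7.42% to 16.4% of its reads on the loci. The sequences below are leading reads and hold only a small part of the signal. They are the 5 with the highest mean level over the 6 libraries, then the highest one opposite to the rRNA on Gm42418, the highest one sense to AY036118, and the highest one of Gm26917 on each strand. Capitals mark positions 1 and 10 of each read, with T standing for U.
rRNA strand, rank 1, chr17:39847736-39847762: TaacgaacgAgactctggcatgctaac
rRNA strand, rank 2: AcgaacgagActctggca
rRNA strand, rank 3: AcctcacccGgcccggac
rRNA strand, rank 4: TcacccggcCcggacacg
rRNA strand, rank 5: CgggcggtcCgccgcgaggcga
Opposite strand of Gm42418, chr17:39847106-39847130: TaagagcatCgagggggcgccgaga
Opposite strand, sense to AY036118, chr17:39847146-39847174: AattttttcAaagtaaacgcttcgggccc
rRNA strand of Gm26917, chr17:39843973-39843994: AgggctcgcCccctgaccgcct
Opposite strand of Gm26917, chr17:39846296-39846320: CaggaccagGcgggacagagagcgc

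The leading read, of 27 nt, begins with U and has A at position 10. It had 13.1 reads per 1000000 library reads (RPM) in the Dnmt3L KO and 131 RPM in the WT at 10 dpp. In the Miwi2 line it had 107 RPM in the KO and 172 RPM in the WT, and at 16.5 dpc 118 RPM in the Dnmt3L KO and 46.5 RPM in the WT. The most frequent sequence of a library made up 2.502% to 7.10% of its reads on the loci, so none dominated them. The rank 2 read is an 18 nt piece of the same stretch that starts 2 bases further on, at 39847738. It varied less than the rank 1 read, with 41.9 RPM in the Dnmt3L KO and 53.5 RPM in the WT at 10 dpp, 26.8 RPM in the Miwi2 KO and 31.0 RPM in the WT, and at 16.5 dpc 36.7 RPM in the Dnmt3L KO and 61.8 RPM in the WT. Ranks 3 to 5 begin with A, T and C and are 18 to 22 nt long.

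The leading opposite-strand reads were far more frequent at 16.5 dpc. The 25 nt read of Gm42418 had 0.24 RPM in the Dnmt3L KO and 0.58 RPM in the WT at 10 dpp, 0.94 RPM in the Miwi2 KO and 1.27 RPM in the WT, but at 16.5 dpc 30.0 RPM in the Dnmt3L KO and 38.8 RPM in the WT. The 29 nt read sense to AY036118 had 0 reads in the Dnmt3L KO and 1 read in the WT at 10 dpp, 0.94 RPM in the Miwi2 KO and 1.42 RPM in the WT, and at 16.5 dpc 25.3 RPM in the Dnmt3L KO and 21.3 RPM in the WT. Counts of 3 reads correspond to 0.0635 to 0.105 RPM across the libraries. By contrast, the leading rRNA-strand read of Gm26917 kept to 3.92 to 6.31 RPM in all 6 libraries.

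Libraries held 28701563 to 47232494 reads, and no group has a second library, so no difference has a replicate check and no test was run. Intervals are 95% and exact (Poisson for levels, Clopper-Pearson for shares, conditional binomial for ratios). What they cover is counting error alone, because each group is 1 library. Reads amplified by PCR and carrying no molecular identifier cannot be counted as separate molecules. The intervals may therefore be too narrow even for counting error. The libraries differed in length profile: reads over 28 nt were 0.124% of the 18 to 35 nt reads in the Dnmt3L KO and 1.40% in the WT at 10 dpp, against 13.3% to 23.1% in the other libraries. The longest reads deposited were of 100 nt in these Dnmt3L libraries of 10 dpp and of 50 nt in the other 4. Each age ratio and the limit from both WT libraries of 10 dpp set these kinds of library against each other, and the part of this in the ratios was not tested. The male germline miRNA genes chosen as tissue markers, 11 on the X chromosome, summed to 3048 to 42141 RPM, and gonadal Mir202 had 30.3 to 425 RPM. The 9 markers of other tissues summed to 188 to 518 RPM. The X-linked markers stood above that sum in every library, while Mir202 alone lay below it in each. In the fetal WT most of the X-linked sum was Mir871 and Mir470 (1358 and 1649 RPM). At 10 dpp sense reads of the deleted genes were too few to check the genotypes: Dnmt3l had 0 in the Dnmt3L KO and 1 in the WT, and Piwil4 had 3 in the Miwi2 KO and 2 in the WT. At 16.5 dpc Dnmt3l had 295 sense reads (6.25 RPM) in the library labelled Dnmt3L KO and 105 (2.48 RPM) in that labelled WT. These reads thus did not bear out the labels. Which part of the gene is deleted is not given in the sources used here, so whether these small RNA reads come from it was not tested, and the fetal KO and WT are named below as labelled.

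The 3 loci together had 1376 RPM (1362 to 1389) in the Dnmt3L KO and 5244 RPM (5221 to 5267) in the WT at 10 dpp. They had 2281 RPM in the Miwi2 KO and 2427 RPM in the WT, and at 16.5 dpc 2618 RPM in the Dnmt3L KO and 3476 RPM in the WT. The WT library of the Dnmt3L line at 10 dpp was thus the highest and its KO the lowest, and the 2 WT libraries of 10 dpp differed by a log2 ratio of -1.11 (Miwi2 over Dnmt3L) with no mutation between them.

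Gm42418 held 93.7% to 98.9% of these reads. Its level was 1339 RPM in the Dnmt3L KO and 5185 RPM in the WT at 10 dpp, 2139 RPM in the Miwi2 KO and 2307 RPM in the WT, and at 16.5 dpc 2528 RPM in the Dnmt3L KO and 3352 RPM in the WT. The stretch facing AY036118 alone held 74.2% to 83.2% of the reads of the loci. Gm26917, the spacer locus, was far lower, with 37.1 RPM in the Dnmt3L KO and 59.3 RPM in the WT at 10 dpp. It had 143 RPM in the Miwi2 KO and 119.7 RPM in the WT, and at 16.5 dpc 90.002 RPM in the Dnmt3L KO and 123.9 RPM in the WT. Its order over the libraries was not that of Gm42418: both Miwi2-line libraries were above both Dnmt3L libraries of 10 dpp.

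Per length, mature rRNA and spacer sequence stood far apart. The 18S part of Gm42418 had 1068 to 4155 RPM per kb. The part of Gm42418 after the 18S sequence had 17.7 to 88.5 RPM per kb, and Gm26917 had 11.1 to 42.9 RPM per kb. Both spacer stretches were well below the 18S part in all 6 libraries. The part after the 18S sequence was above Gm26917 in each, with 17.7 against 11.1 RPM per kb in the Dnmt3L KO of 10 dpp and 88.5 against 37.2 RPM per kb in the fetal WT.

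**Figure D1:**
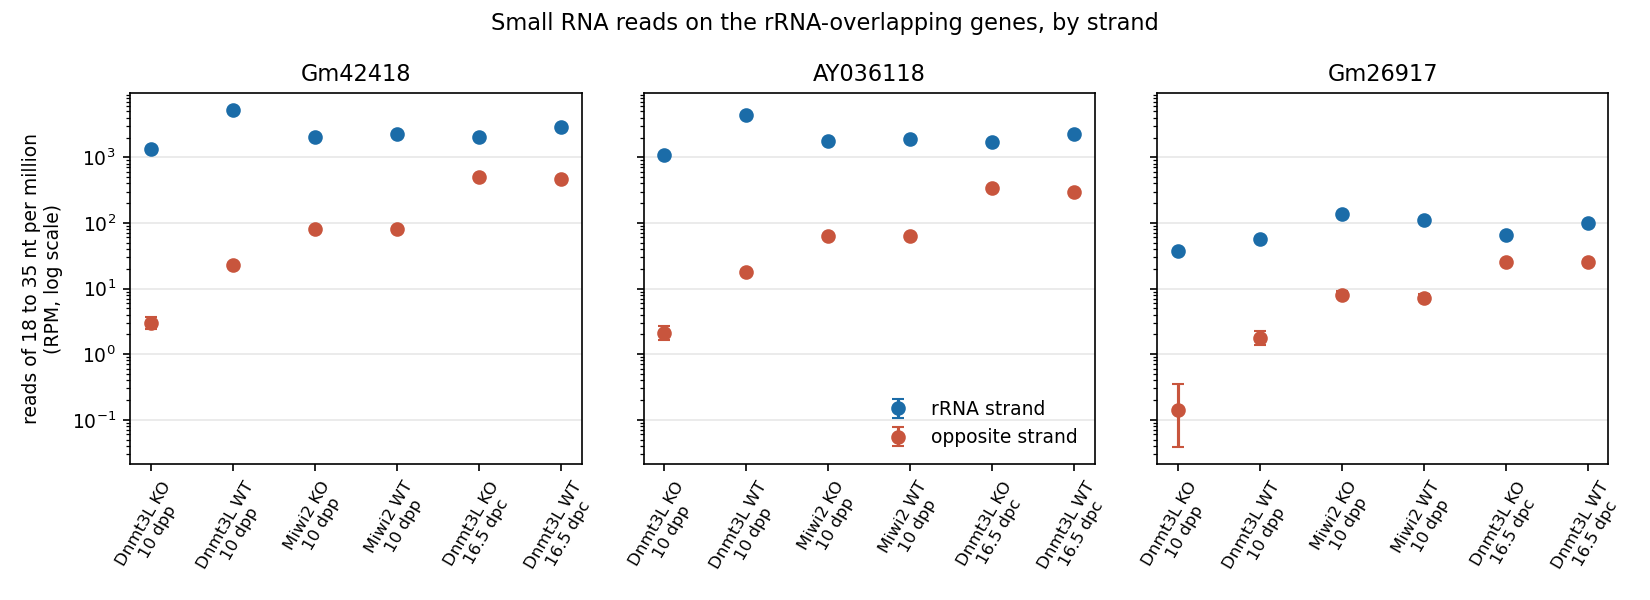
Reads of 18 to 35 nt per 1000000 library reads (RPM, log scale) on Gm42418, AY036118 and Gm26917, split into the rRNA strand (blue) and the opposite strand (red), with 95% exact Poisson intervals that cover counting error only; each point is 1 library. The opposite strand of Gm42418 lies at 3.03 and 22.8 RPM in the Dnmt3L KO and WT of 10 dpp and at 499 and 470 RPM in the Dnmt3L KO and WT of 16.5 dpc, while the rRNA strand stays between 1336 and 5162 RPM; the reads of AY036118 are all reads of Gm42418 too.

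Changes were read against the WT libraries of 10 dpp: a ratio was called where it was larger, on the log2 scale and in either direction, than 95% of the ratios between those libraries over genes with at least 500 reads. The limit was 1.93 for both strands together (8042 genes), 2.09 for sense and 1.77 for antisense reads. The ratios behind it were not centred: for both strands together their median log2 ratio was 0.58 (Miwi2 WT over Dnmt3L WT). The limit thus also holds this offset between the libraries. In the Dnmt3L line at 10 dpp, the 3 loci together had a log2 KO over WT ratio of -1.93 (0.262-fold, 0.259 to 0.265). It passed the limit by only 0.0040, and TMM scaling turned its sign (0.26). So did distinct sequences, in ratios here and below taken as a share of all distinct sequences of the library (0.40). The KO itself had fewer distinct sequences on the loci, 4547 against 8113 in the WT. In that comparison 70.5% of all genes were called lower and the median log2 ratio of all genes was -2.56, so the loci lay with the bulk of genes. Among them, Gm42418 had -1.95, AY036118 -1.99 and Gm26917 -0.68, and the last did not pass the limit. Values over both strands mostly describe the rRNA strand, whose own ratio of -1.93 did not pass the sense limit, which 65.9% of all genes passed. TMM differs from the library total by a common shift: it moved every ratio of this comparison by 2.19. The share of distinct sequences is not such a shift, because it counts each sequence once.

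No locus passed the limit in the other KO comparisons. In the Miwi2 line the loci together had a log2 KO over WT ratio of -0.09 (0.940-fold, 0.932 to 0.948), where 4.64% of all genes were called and the median was -0.31. Gm42418 had -0.11 and Gm26917 0.26. At 16.5 dpc the log2 ratio of the library labelled Dnmt3L KO over that labelled WT was -0.41 (0.753-fold, 0.748 to 0.759), where 0.818% of all genes were called and the median was -0.16. Gm42418 had -0.41 and Gm26917 -0.46. The intervals exclude a ratio of 1 in both, but they cover counting error only. Between ages, the log2 ratio of 10 dpp over 16.5 dpc was -0.93 in the Dnmt3L KO, where 47.3% of all genes were called, and 0.59 in the WT, where 35.2% were. Neither passed the limit, and neither sign held on every scale. By the share of distinct sequences the Dnmt3L KO ratio was 1.67, past its limit of 1.03 in the other direction. The distinct sequences themselves were fewer at 10 dpp, 4547 against 9585 at 16.5 dpc. With miRNA reads as scale the WT ratio was -0.52. These comparisons share libraries: each Dnmt3L library enters both a genotype and an age ratio.

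Between ages, and between KO and WT of the Dnmt3L line at 10 dpp, the strand opposite to the rRNA had larger ratios than the rRNA strand; in the other KO comparisons it had the smaller ones. It had 3.17 RPM (2.55 to 3.89, 91 reads) in the Dnmt3L KO and 24.6 RPM (23.1 to 26.2, 937 reads) in the WT at 10 dpp. In the Miwi2 line it had 88.5 RPM in the KO and 86.8 RPM in the WT. At 16.5 dpc it had 524 RPM in the Dnmt3L KO and 495 RPM in the WT. Each age of the Dnmt3L line thus stood apart from the other by more than 10 times on this strand, and the Miwi2 line at 10 dpp lay between.

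In the Dnmt3L KO, the log2 ratio of 10 dpp over 16.5 dpc on this strand was -7.37, where 56.4% of all genes were called lower for antisense reads and the median was -1.99. In the Dnmt3L WT, opposite-strand reads fell to 0.050 of their fetal level at 10 dpp (interval 0.047 to 0.053), a log2 ratio of -4.33, where 20.4% were called lower and the median was 0.45. Both ratios kept their sign under scaling to miRNA reads, TMM scaling, the share of distinct sequences and 24 to 27 nt reads alone. The WT libraries of 10 dpp themselves differed on this strand by a log2 ratio of 1.82 (Miwi2 over Dnmt3L). That is past the antisense limit of 1.77, with no mutation or age between them. On the rRNA strand the same age ratios were -0.61 for the Dnmt3L KO and 0.81 for the WT, and neither passed the sense limit, which 44.8% (KO) and 29.9% (WT) of all genes passed. The KO over WT log2 ratio of the opposite strand at 10 dpp was -2.96 (0.129-fold, 0.103 to 0.160), where 80.0% of all genes were called lower and the median was -2.85. With TMM scaling it was -0.77 and no longer passed its limit. It was 0.03 in the Miwi2 line, where 5.92% of all genes were called and the rRNA strand had -0.09. It was 0.08 between the libraries labelled Dnmt3L KO and WT at 16.5 dpc, where 0.457% were called and the rRNA strand had -0.51. The share of distinct sequences turned the sign of this fetal ratio (-0.073), although the KO had more of them, 2213 against 1779.

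As a share of the reads of the loci, the opposite strand made up 0.230% in the Dnmt3L KO and 0.469% in the WT at 10 dpp, 3.88% in the Miwi2 KO and 3.58% in the WT, and at 16.5 dpc 20.02% in the Dnmt3L KO and 14.2% in the WT. Since few long reads are present in the Dnmt3L libraries of 10 dpp, the share was also taken at matched length. Among reads of 24 to 27 nt it was 0.377% in the Dnmt3L KO and 0.521% in the WT at 10 dpp, 3.25% in the Miwi2 KO and 3.13% in the WT, and at 16.5 dpc 25.0% in the Dnmt3L KO and 24.4% in the WT. The order of the libraries by age and line was the same. Among 18 to 23 nt reads the fetal shares were lower, with 13.2% for the KO and 6.88% for the WT.

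The same strand pattern held in each locus. Gm26917 had 0.139 RPM (4 reads) on the opposite strand in the Dnmt3L KO and 1.79 RPM in the WT at 10 dpp, 8.09 RPM in the Miwi2 KO and 7.29 RPM in the WT, and at 16.5 dpc 25.0 RPM in the Dnmt3L KO and 25.4 RPM in the WT. The opposite-strand reads sense to AY036118 had 2.13 RPM in the Dnmt3L KO and 17.8 RPM in the WT at 10 dpp, 62.2 RPM in the Miwi2 KO and 62.7 RPM in the WT, and at 16.5 dpc 342 RPM in the Dnmt3L KO and 291 RPM in the WT. In the part of Gm42418 after the 18S sequence the fetal KO held about as many reads on each strand. The opposite strand had 14.7 RPM and the rRNA strand 13.3 RPM there. In the fetal WT the opposite strand was lower, with 21.2 RPM against 30.7 RPM. None of the 3 members had an opposite strand above its rRNA strand when taken whole.

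Length separated the strands too. On the rRNA strand 18 nt, the shortest length counted, was the most frequent length in 4 of the 6 libraries, and 27 nt in the Miwi2 WT and the fetal Dnmt3L KO. Reads of 24 to 32 nt, the piRNA size range, made up 32.9% of this strand in the Dnmt3L KO and 43.6% in the WT at 10 dpp, 52.2% in the Miwi2 KO and 56.1% in the WT, and at 16.5 dpc 57.5% in the Dnmt3L KO and 43.7% in the WT. On the opposite strand they made up 57.1% in the Dnmt3L KO and 62.2% in the WT at 10 dpp, 70.0% in the Miwi2 KO and 69.7% in the WT, and at 16.5 dpc 79.5% in the Dnmt3L KO and 77.7% in the WT. The opposite strand had the larger share of piRNA size in every library, and its most frequent length was 25 to 29 nt. Of the reads opposite to Gm26917, 95.3% in the fetal KO and 95.5% in the fetal WT had 24 to 32 nt. The rRNA-strand reads of Gm26917 instead had 22 nt as their most frequent length in all 6 libraries.

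**Figure D2:**
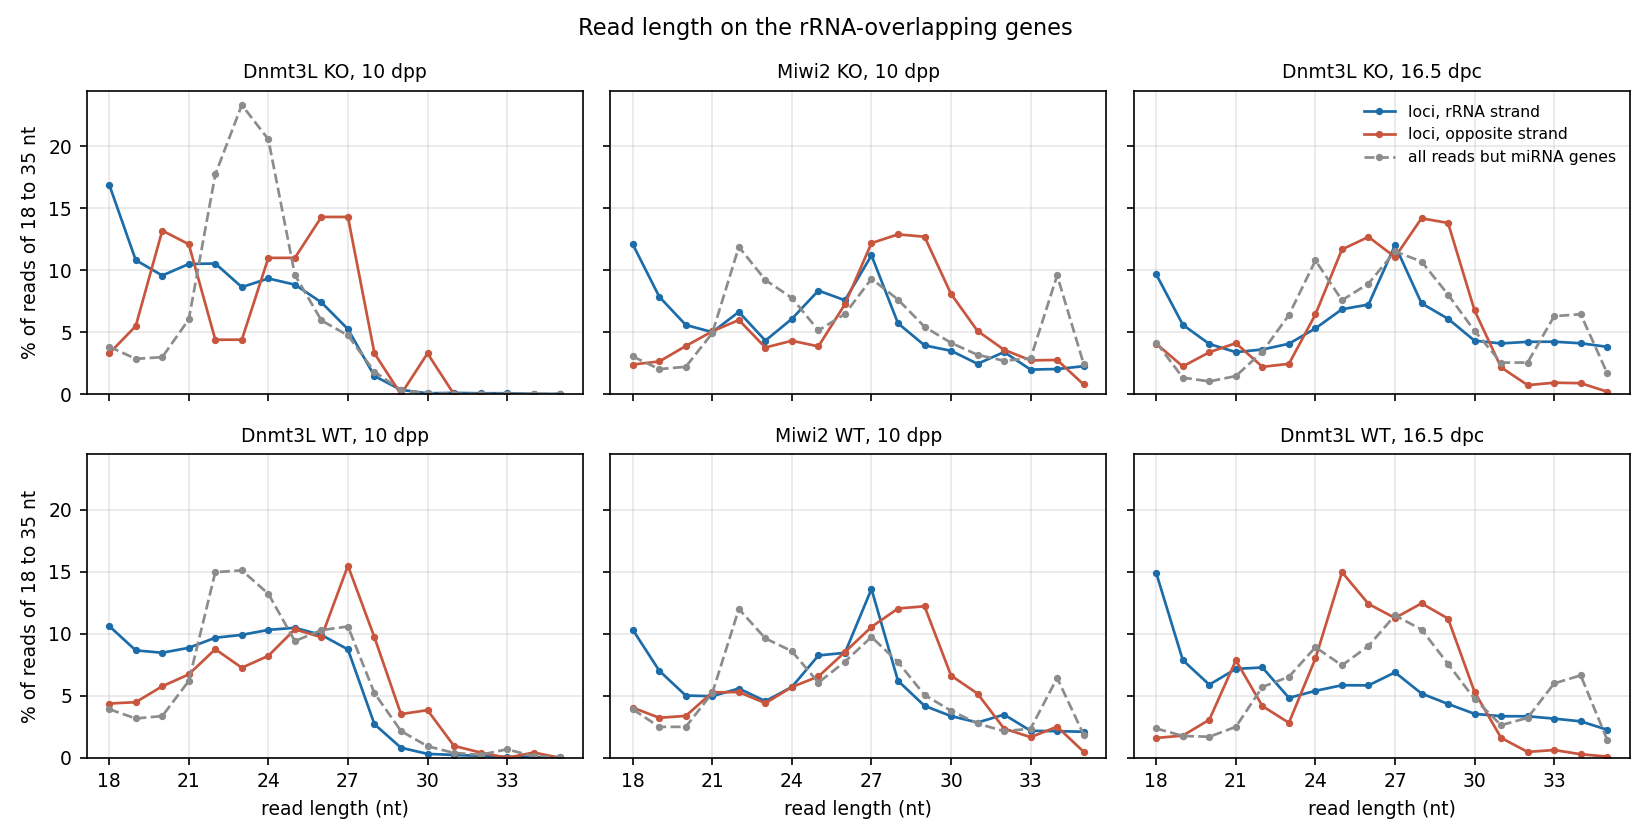
Length of the 18 to 35 nt reads on the rRNA strand (blue) and the opposite strand (red) of the 3 loci, as a percent of the reads of that strand, beside all reads outside miRNA genes (grey, dashed), for the 6 libraries with KO above WT. The rRNA strand has its highest point at 18 nt in 4 libraries, while the opposite strand is highest at 25 to 29 nt; the Dnmt3L KO of 10 dpp rests on 91 opposite-strand reads.

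On the rRNA strand U came first more often than the base composition gives, but only slightly so when each sequence counted once. Of its 24 to 32 nt reads, 26.4% (25.6 to 27.2) began with U in the Dnmt3L KO and 30.1% in the WT at 10 dpp, 32.4% in the Miwi2 KO and 35.5% in the WT, and at 16.5 dpc 39.9% in the Dnmt3L KO and 34.1% in the WT. T makes up 22.03% of the 18S part, where most of these reads lie, and 22.6% of Gm26917 on this strand. The fetal KO was thus farthest from composition and the Dnmt3L KO of 10 dpp nearest. Counted once per distinct sequence, the shares were 23.8% to 26.5%. Among 18 to 23 nt reads, 15.1% to 24.2% began with U. For comparison, 65.0% to 78.3% of all 24 to 32 nt reads outside miRNA genes began with U.

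On the opposite strand 38.5% (25.3 to 53.0) of the 24 to 32 nt reads began with U in the Dnmt3L KO and 41.3% (37.3 to 45.5) in the WT at 10 dpp, 31.5% in the Miwi2 KO and 36.01% in the WT, and at 16.5 dpc 43.3% in the Dnmt3L KO and 48.5% in the WT. Opposite to the 18S part alone, where T makes up 22.9% of bases, the share was 41.7% in the Dnmt3L KO and 38.1% in the WT at 10 dpp, 29.4% in the Miwi2 KO and 34.3% in the WT, and at 16.5 dpc 42.7% in the Dnmt3L KO and 47.3% in the WT. All 6 were above composition, the Miwi2 KO by the least. The distance to composition was larger where T is rare. T makes up 8.26% of Gm26917 on that strand. Of the reads opposite to Gm26917, 44.1% in the fetal KO and 44.0% in the fetal WT began with U. Opposite to the part of Gm42418 after the 18S sequence, where T is 6.64% of bases, the shares were 59.8% in the fetal KO and 75.9% in the fetal WT. Counted once per distinct sequence, the opposite strand of the 3 loci gave 36.8% to 44.6%. In every library these shares were below those of all reads outside miRNA genes.

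A at position 10 was frequent on the opposite strand of the 18S part. Over the 3 loci it stood in 26 of the 52 reads of 24 to 32 nt in the Dnmt3L KO (interval 35.8% to 64.2%) and 49.1% in the WT at 10 dpp, 51.4% in the Miwi2 KO and 56.6% in the WT, and at 16.5 dpc 59.3% in the Dnmt3L KO and 52.7% in the WT. A makes up 22.03% of the 18S part on that strand. Counted once per distinct sequence, 38.8% to 51.4% had it. On the rRNA strand, where A makes up 22.9% of the 18S part, the shares of reads were 26.6% in the Dnmt3L KO and 30.7% in the WT at 10 dpp, 30.5% in the Miwi2 KO and 35.4% in the WT, and at 16.5 dpc 35.0% in the Dnmt3L KO and 26.97% in the WT. Per distinct sequence of the 18S part they were 23.2% to 24.2%, close to composition. By locus, A at position 10 stood in 62.0% of the fetal KO reads and 55.4% of the fetal WT reads opposite to the 18S part of Gm42418. After the 18S sequence it stood in 41.6% in the fetal KO and 40.6% in the fetal WT. Opposite to Gm26917 the shares were 27.95% in the fetal KO and 24.1% in the fetal WT, with A at 22.6% of its bases there. In the fetal libraries A at position 10 thus exceeded its share of bases by more than U at position 1 did opposite to the 18S part, and by less opposite to the other stretches.

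**Figure D3:**
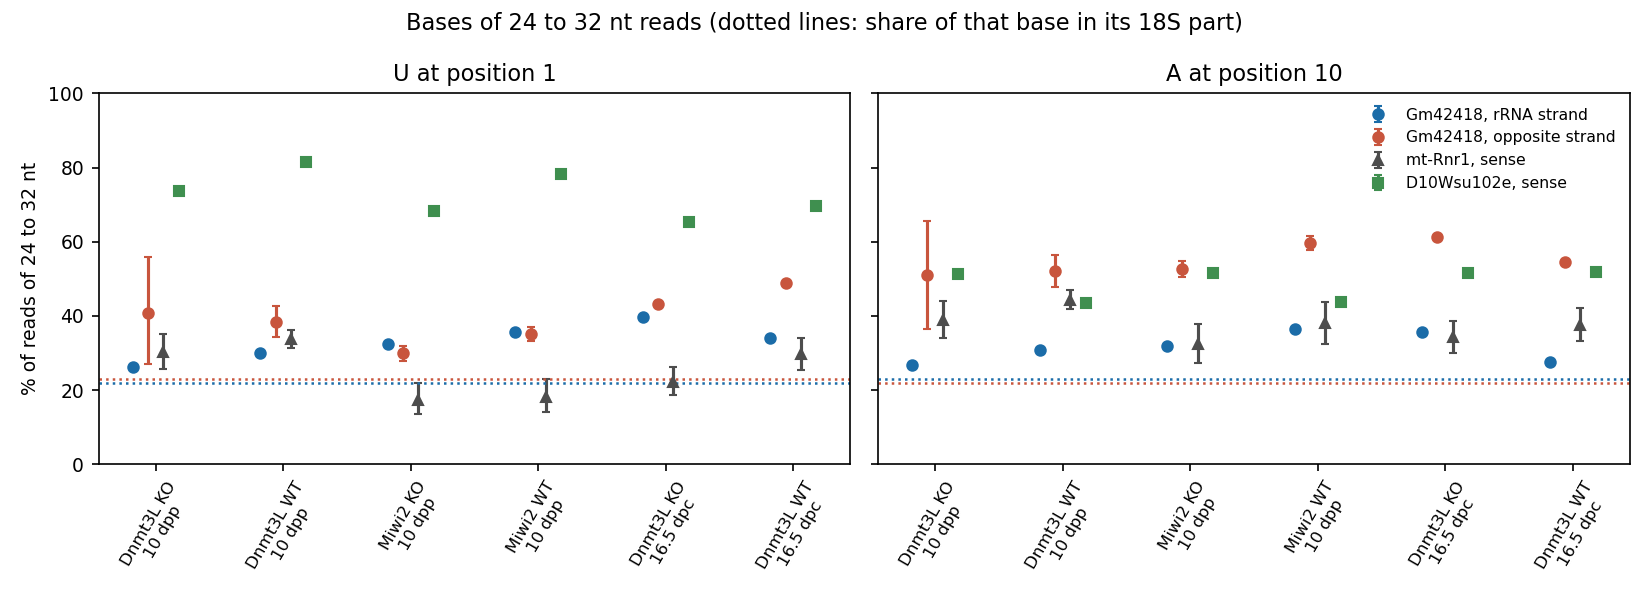
Percent of 24 to 32 nt reads with U at position 1 (left) and A at position 10 (right) on Gm42418, by strand, beside reads sense to the mitochondrial rRNA mt-Rnr1 and to D10Wsu102e, with 95% exact Clopper-Pearson intervals for counting error; dotted lines give the share of that base in the 18S part of Gm42418 on each strand. The opposite strand (red) has A at position 10 in 51.0% to 61.3% of reads, and the U share of both strands lies under that of D10Wsu102e in all 6 libraries.

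Other transcripts put these shares in context. mt-Rnr1, the small mitochondrial rRNA, is ribosomal RNA from outside the nuclear unit, and 98.8% to 100% of its reads were sense. Of its sense reads of 24 to 32 nt, 17.4% to 33.8% began with U and 32.3% to 44.4% had A at position 10, with T at 26.4% and A at 37.8% of its bases. Reads of mt-Rnr1 and mt-Rnr2 together began with A in 69.3% to 93.9% of cases. The other 353 genes of biotype rRNA, 180 of them named n-R5s for 5S rRNA, gave sense reads of which 21.6% to 35.6% of 24 to 32 nt began with U. D10Wsu102e, chosen as a piRNA source, had 65.5% to 81.6% U at position 1 and 43.5% to 51.9% A at position 10 in its sense reads, with 27.6% to 59.97% of its reads sense. Tmem38b, chosen for the same reason, did not show that profile: its reads were nearly all sense, had a most frequent length of 23 nt, and of those of 24 to 32 nt 14.3% to 36.3% began with U. Among 24 to 32 nt reads over all libraries, mt-Rnr1 and the other genes of biotype rRNA had a combined U-first range of 17.4% to 35.6%. That range leaves out mt-Rnr2. The rRNA strand of the loci lay within it except in the fetal KO, where it was above. The opposite strand lay above composition but below D10Wsu102e.

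The comparison genes also show how the level ratios sit among abundant transcripts. At 10 dpp the Dnmt3L KO over WT log2 ratio was -1.73 for mt-Rnr1, 0.32 for mt-Rnr2, the large mitochondrial rRNA, -2.18 for the sense reads of other genes of biotype rRNA, -1.92 for Tmem38b and -1.01 for D10Wsu102e, beside -1.93 for the 3 loci. In the Miwi2 line the KO over WT log2 ratio was 0.28 for mt-Rnr1, 0.55 for mt-Rnr2, 0.53 for other genes of biotype rRNA, -0.08 for Tmem38b and 1.42 for D10Wsu102e, beside -0.09 for the 3 loci. At 16.5 dpc the library labelled Dnmt3L KO over that labelled WT gave -0.21 for mt-Rnr1, 2.25 for mt-Rnr2, -1.08 for other genes of biotype rRNA, -1.09 for Tmem38b and 0.03 for D10Wsu102e, beside -0.41 for the 3 loci. Ribosomal RNAs of different genes thus did not have 1 common ratio, and mt-Rnr2 differed in sign from the loci in each of the 3. All of these ratios share the library total as their scale.

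Read ends were not spread evenly. With distance counted from the start of Gm42418, the stretch from 601 to 800 nt held 47.6% of its rRNA-strand reads in the Dnmt3L KO and 47.3% in the WT at 10 dpp, 49.9% in the Miwi2 KO and 49.6% in the WT, and at 16.5 dpc 48.9% in the Dnmt3L KO and 43.5% in the WT. The 5 leading 5′ ends of the rRNA strand all lie there, at 661, 778, 779, 780 and 783 nt. The end at 778, that of the rank 1 read, had 34.6 RPM in the Dnmt3L KO and 263 RPM in the WT at 10 dpp, 138 RPM in the Miwi2 KO and 210.0 RPM in the WT, and at 16.5 dpc 178 RPM in the Dnmt3L KO and 75.2 RPM in the WT. Ends only a few bases apart thus form a ladder at this place. The same stretch held 20.1% to 41.5% of the opposite-strand reads of Gm42418.

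Over reads of 18 to 35 nt, the opposite strand had more of its reads at its 10 leading 5′ ends than the rRNA strand. These ends held 42.9% of its reads in the Dnmt3L KO and 34.2% in the WT at 10 dpp, 34.9% in the Miwi2 KO and 34.02% in the WT, and at 16.5 dpc 46.0% in the Dnmt3L KO and 49.6% in the WT. The 10 leading 5′ ends of the rRNA strand held 24.4% to 28.8% of its reads. The opposite strand had fewer reads in every library and only 54 to 835 ends, against 1387 to 1891 on the rRNA strand. The part of this in its larger share was not tested. The larger share did not hold for every measure. Among 24 to 32 nt reads of the Miwi2 WT the 10 leading ends held 38.7% on the opposite strand and 40.7% on the rRNA strand. The first end alone held less on the opposite strand than on the rRNA strand in the Dnmt3L WT of 10 dpp (4.70% against 5.04%), the Miwi2 WT (7.86% against 8.97%) and the fetal KO (8.07% against 8.51%). The leading ends on the opposite strand were at 750, 172, 216, 1121 and 915 nt, which covers most of the 18S part rather than 1 place. The end at 1121 had 2 reads in the Dnmt3L KO and 5 in the WT at 10 dpp, 4 in the Miwi2 KO and 56 in the WT, and at 16.5 dpc 21.9 RPM in the Dnmt3L KO and 41.8 RPM in the WT. The base after the 3′ end of a read was U for 31.6% to 36.1% of rRNA-strand reads and for 8.79% to 15.4% of opposite-strand reads. In the 18S part, where most of these reads lie, T makes up 22.03% of bases on the rRNA strand and 22.9% on the opposite strand. The rRNA strand was thus above that composition and the opposite strand below it.

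**Figure D4:**
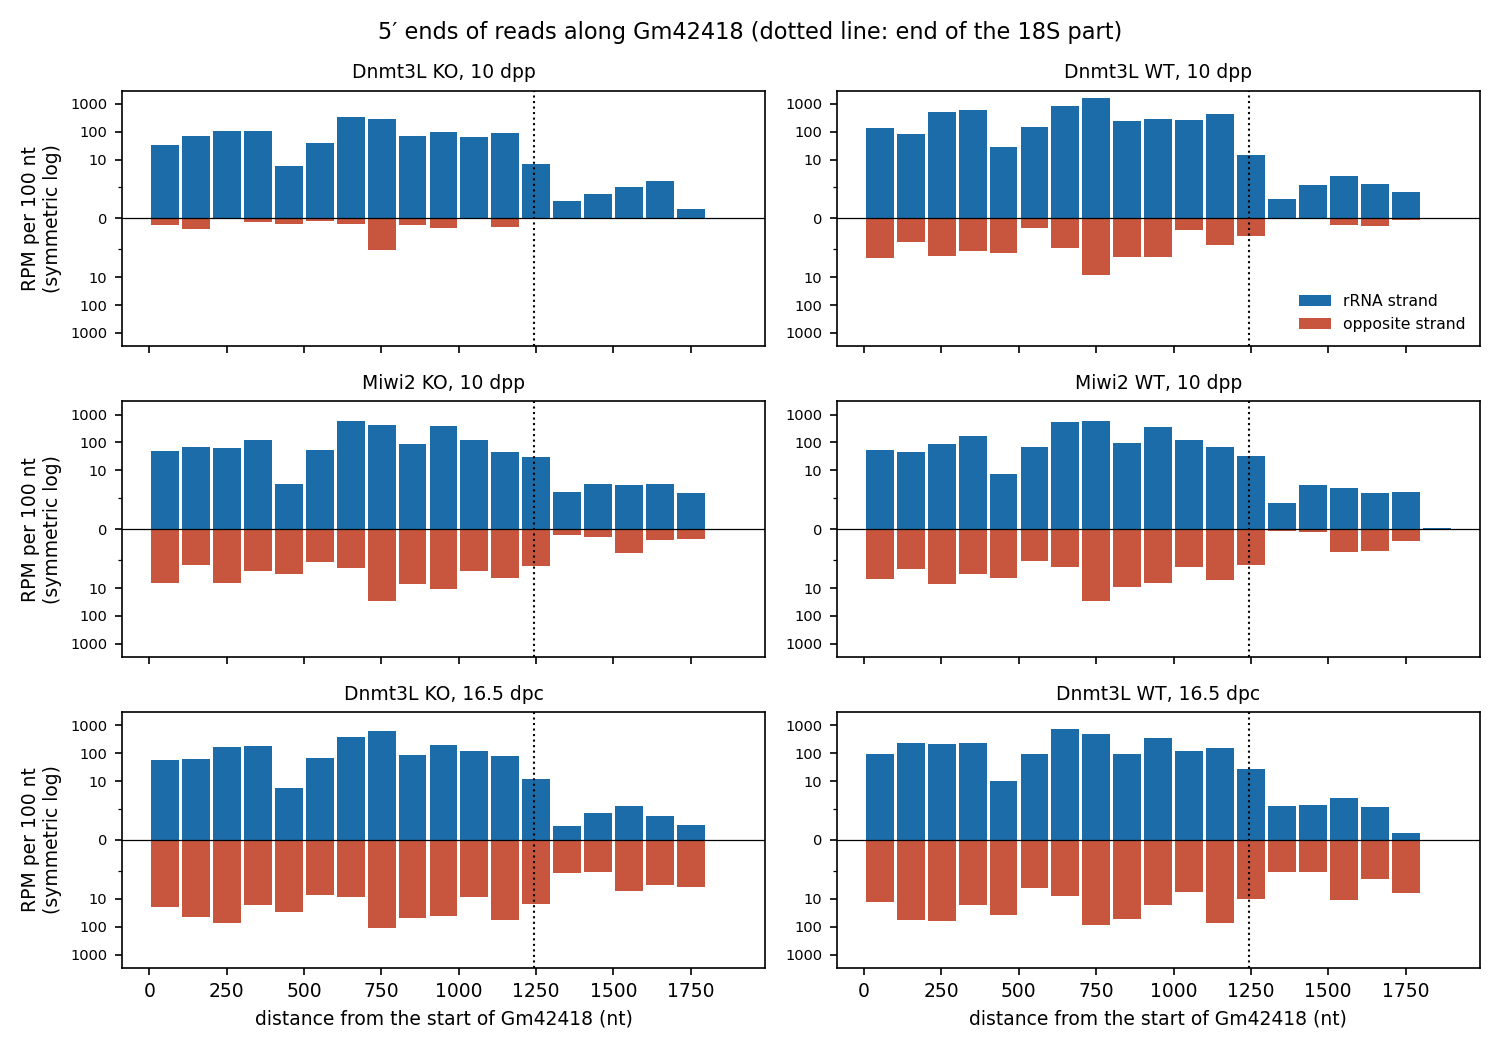
5′ ends of 18 to 35 nt reads along Gm42418 in steps of 100 nt, as RPM on a symmetric log scale, with the rRNA strand above 0 and the opposite strand below it, for the 6 libraries with KO left of WT. The rRNA strand drops after the dotted line where the 18S sequence ends, and it holds 43.5% to 49.9% of its reads from 601 to 800 nt; the bars below 0 are tallest in the libraries of 16.5 dpc.

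Reads on opposite strands met at 10 nt more often than at most other overlaps where frequent reads were given weight. Weighted by the product of the counts, 10 nt made up 13.3% of overlaps of 1 to 20 nt between 5′ ends of 24 to 32 nt reads in the Dnmt3L KO and 7.63% in the WT at 10 dpp, 22.9% in the Miwi2 KO and 19.4% in the WT, and at 16.5 dpc 20.4% in the Dnmt3L KO and 10.5% in the WT. An even spread over the 20 overlaps gives 5%. The value of the Dnmt3L KO of 10 dpp rests on only 52 opposite-strand reads and 15 pairs of places at 10 nt. It was the most frequent overlap in every library but the Dnmt3L WT of 10 dpp, where 1 nt had 12.8%. Weighted by the smaller count of each pair, it made up 5.06% to 7.03%, and it was the most frequent overlap in 4 libraries by a small margin over the next: 6.64% against 6.35% in the Miwi2 KO, 6.63% against 6.04% in the Miwi2 WT, 7.03% against 6.73% in the fetal KO and 5.65% against 5.45% in the fetal WT. Counting each pair of places once, it made up 4.93% to 5.61%, near the even share.

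In both Dnmt3L KO libraries much of the share at 10 nt came from 1 place. The pair of reads with the highest product of mean levels at 10 nt joined the rank 1 read to a read of 29 nt on the opposite strand at chr17:39847717-39847745, and the next pair lay at chr17:39847848-39847873 on the opposite strand and chr17:39847864-39847888 on the rRNA strand.
Pair 1, rRNA strand: TaacgaacgAgactctggcatgctaac
Pair 1, opposite strand: TcgttcgttAtcggaattaaccagacaaa
Pair 2, rRNA strand: TagatgtccGgggctgcacgcgcgc
Pair 2, opposite strand: CggacatctAagggcatcacagacct
In pair 1 both reads begin with U and both have A at position 10. In pair 2 the rRNA-strand read begins with U and the opposite-strand read has A at position 10. Each such A was fixed by the U of its partner, so it adds no further evidence. Matched reads that overlap by 10 nt pair position 10 of 1 read with position 1 of the other. The opposite-strand read of pair 1 was rare, with 0 reads in the Dnmt3L KO and 4 in the WT at 10 dpp, 31 in the Miwi2 KO and 47 in the WT, and at 16.5 dpc 247 in the Dnmt3L KO and 28 in the WT. The opposite-strand read of pair 2 had 1 read in the Dnmt3L KO and 11 in the WT at 10 dpp, 38 in the Miwi2 KO and 32 in the WT, and at 16.5 dpc 763 in the Dnmt3L KO and 234 in the WT. Without the rRNA-strand reads that share the 5′ end of the rank 1 read, 10 nt made up 7.29% in the Dnmt3L KO and 6.42% in the WT at 10 dpp, 20.2% in the Miwi2 KO and 14.2% in the WT, and at 16.5 dpc 11.04% in the Dnmt3L KO and 10.1% in the WT. It was then the most frequent overlap in 4 of the 6 libraries, not in the Dnmt3L KO and WT of 10 dpp.

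Reads of 18 to 23 nt gave 2.98% to 7.87% at 10 nt, with another overlap most frequent in 5 of the 6 libraries. On Gm26917 alone 10 nt made up 0% to 7.94% and was the most frequent overlap in no library. Of the opposite-strand reads of 24 to 32 nt, 51.9% in the Dnmt3L KO and 73.2% in the WT at 10 dpp, 79.0% in the Miwi2 KO and 77.1% in the WT, and at 16.5 dpc 73.5% in the Dnmt3L KO and 69.2% in the WT had a read of that size on the rRNA strand overlapping them by 10 nt. The rRNA strand is densely covered, with read 5′ ends at 15.9% to 27.1% of its positions for that size, which bears on this share, and its part in it was not tested.

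**Figure D5:**
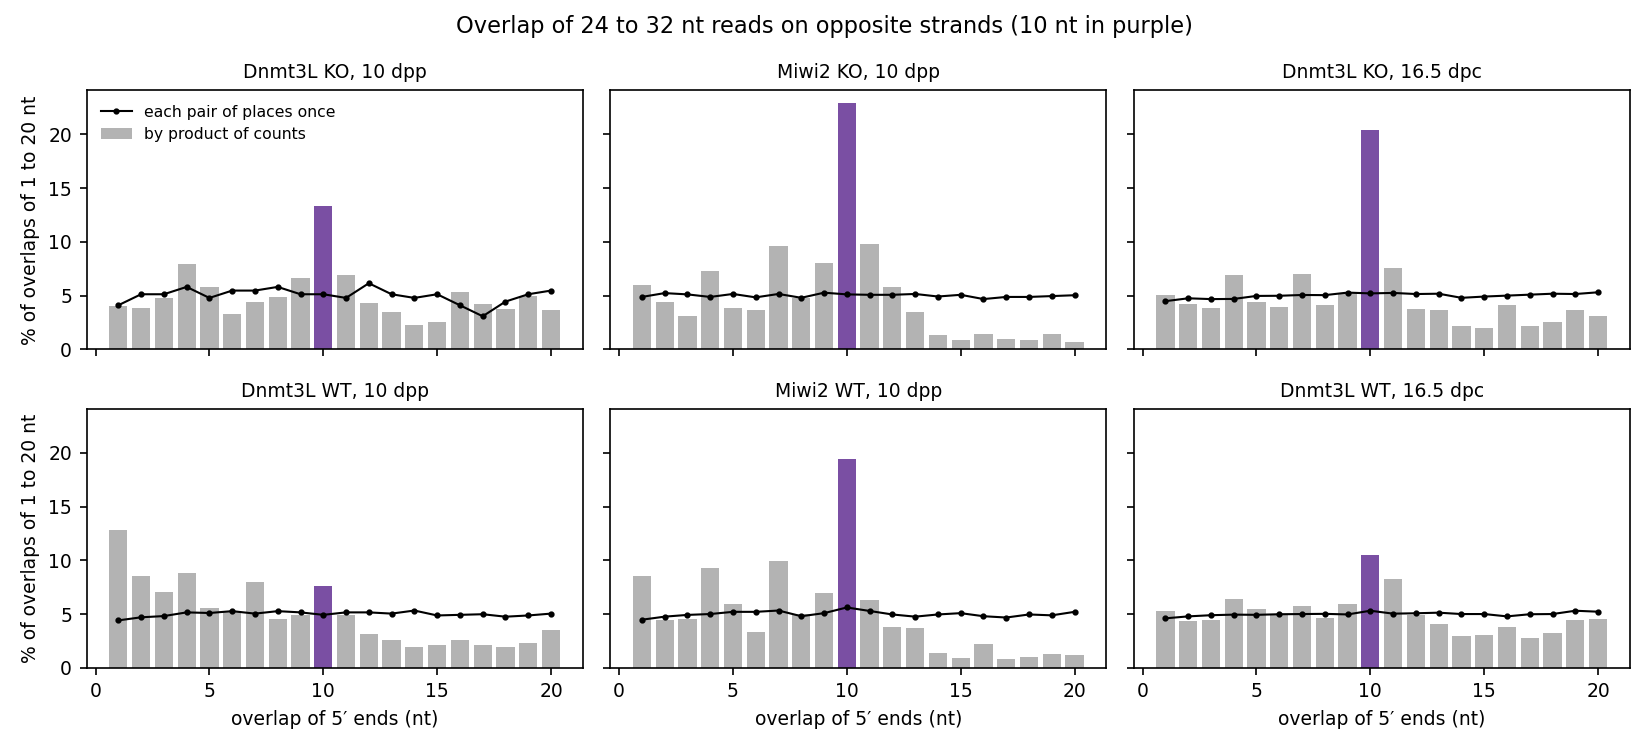
Overlap between the 5′ ends of 24 to 32 nt reads on opposite strands of the loci, as a percent of overlaps of 1 to 20 nt, weighted by the product of counts (bars, 10 nt in purple) or with each pair of places counted once (black line), for the 6 libraries with KO above WT. The 10 nt bar reaches 22.9% in the Miwi2 KO and 7.63% in the Dnmt3L WT of 10 dpp, while the line stays near 5% at 10 nt in every library.

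Because the loci lie over a repeated unit, their reads are not their own. CT010467.1, the 18S gene, held 92.0% to 98.5% of the reads of the loci, and 1.45% to 7.96% lay in no other gene. Leaving CT010467.1 aside, 99.875% or more of the reads in all 6 libraries lay in no gene outside the 3, and 1 miRNA gene, mmu-mir-3535, held at most 0.0183% of them. The many other copies of the rRNA unit in the genome were not analysed here, so a read counted on chromosome 17 may come from any copy. Of the genes of which under 10% of reads lie on the 3 loci, 11849 had at least 500 reads over the libraries, and the 5 whose log2 level followed that of the loci most closely over the 6 libraries were Gm25202 (Pearson r = 0.96), Gm25360 (0.96), Mir6236 (0.94), Gm25813 (0.94) and Rps15a-ps8 (0.93). Gm25202, Gm25360 and Gm25813 are annotated as snRNA genes. The points share their libraries and their scale, and 16 genes had r above 0.9, so the likeness is a description of these 6 libraries.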

How the data were processed

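Small RNA reads of 6 mouse testis libraries were deposited by the authors as 1 file per library that lists each read sequence and its raw count, with no header. The sources used here do not give the trimming, filters or aligner, and mm9 is the only build in the submitters' processing notes. All coordinates printed are GRCm38, from GENCODE vM21. Reads of 18 to 35 nt were matched without mismatch to both strands of the longest transcript of 55450 genes (Python 3.11.15, numpy 2.4.6, pandas 2.3.3), and matching was checked on simulated reads with known places. A read counts in each gene that holds it, and once for the 3 loci together. Levels are reads per 1000000 library reads. Intervals are exact (scipy 1.17.1). Each group is 1 library, so no test was run and 5 ratios were read against a limit set by both WT libraries of 10 dpp. That limit also holds any difference between the lines and their library preparation. TMM factors come from edgeR 4.0.16 (R 4.3.3), as an alternative scale only. Named are the 3 loci, the comparison genes, genes that hold at least 5% of the reads of the loci, and the 5 genes most alike in log2(RPM + 0.1). The read pairs and the 18S part before Gm42418 were added after values were seen. The loci, comparison genes, rules and alternatives were chosen with earlier results of these data known. The extent of the 18S sequence is that of CT010467.1, and RefSeq places it 1 base further on.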

Additional observations from a re-analysis of the deposited data

Results flagged for a closer look

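On the strand opposite to the rRNA of Gm42418, the Dnmt3L KO over WT log2 ratio had a different sign at the 2 ages. For the 3 loci together it was -2.96 at 10 dpp, where the median of all genes was -2.85, and 0.082 at 16.5 dpc. That at 16.5 dpc was -0.074 with 24 to 27 nt reads alone and -0.073 by the share of all distinct sequences. For Gm42418 it was -2.91 at 10 dpp and 0.088 at 16.5 dpc, and for the part facing AY036118, whose reads are among those of Gm42418, -3.07 at 10 dpp and 0.23 at 16.5 dpc. For Gm26917 both were below 0, with -3.68 at 10 dpp, where the KO has 4 reads, and -0.019 at 16.5 dpc. The fetal libraries are named as labelled, and their Dnmt3l sense reads did not bear out the labels (6.25 RPM in the KO, 2.48 RPM in the WT). Whether those reads come from the deleted part of the gene was not tested. The difference between ages was not tested, since each group is 1 library, and the ratio at 16.5 dpc did not pass the limit of 1.77. A further result comes from the 18S sequence before Gm42418, which lies in none of the 3 loci. Its most frequent read, of 32 nt, was higher in the Miwi2 KO (98.5 RPM) than in the WT (57.5 RPM). That difference was not tested either.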

How the results depend on the processing

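Of 65 alternative values of the 5 log2 ratios of the 3 loci, 48 kept their direction and their side of the limit, 6 no longer passed it and 11 changed sign. For Dnmt3L KO over WT at 10 dpp, the ratio no longer passed its limit with miRNA reads as scale (-2.16), reads of 18 to 35 nt as scale (-1.99), 18 to 23 nt reads (-1.68), reads in no gene outside the 3 (-0.68), a limit with no count minimum (-1.93 against 2.62) or without the most frequent sequence (-1.91). It changed sign with TMM scaling (0.26) and distinct sequences (0.40), which in ratios are a share of all distinct sequences of the library. For Miwi2 KO over WT the sign changed with TMM scaling (0.18), distinct sequences (0.33), 18 to 23 nt reads (0.050) and reads in no gene outside the 3 (0.20). For 10 dpp over 16.5 dpc it changed in the Dnmt3L KO with TMM scaling (0.69), distinct sequences (1.67, past its limit of 1.03) and 18 to 23 nt reads (0.33), and in the WT with miRNA reads as scale (-0.52) and reads in no gene outside the 3 (-1.21). TMM moved every ratio of a comparison by the same amount, 2.19 for Dnmt3L KO over WT at 10 dpp, 0.16 at 16.5 dpc, 0.27 in the Miwi2 line, and 1.62 and -0.41 for the age ratios of the Dnmt3L KO and WT. On the opposite strand 16 of 20 values kept direction and side. Those at 16.5 dpc changed sign with 24 to 27 nt reads (-0.074) and distinct sequences (-0.073), that of the Miwi2 line with 24 to 27 nt reads (-0.16), and Dnmt3L KO over WT at 10 dpp no longer passed its limit with TMM scaling (-0.77). All 66 alternative shares (U at position 1, A at position 10, 24 to 32 nt, sense) moved past their counting intervals, which are narrow at these depths. The causes were not tested. Leaving out CT010467.1 as another gene, removing the most frequent sequence and all opposite-strand alternatives were chosen after seeing the data. No paired analysis was possible because each group is 1 library.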

Other observations

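The first 605 bases of the 18S sequence lie before Gm42418 and in none of the 3 loci. Their rRNA strand had 497 RPM in the Dnmt3L KO and 2128 RPM in the WT at 10 dpp, 678 RPM in the Miwi2 KO and 751 RPM in the WT, and at 16.5 dpc 1192 RPM in the Dnmt3L KO and 1595 RPM in the WT. Their opposite strand had 1.29 RPM in the Dnmt3L KO and 6.36 RPM in the WT at 10 dpp, 26.3 RPM in the Miwi2 KO and 23.4 RPM in the WT, and at 16.5 dpc 171 RPM in the Dnmt3L KO and 164 RPM in the WT. The most frequent read there, on the rRNA strand at chr17:39846456-39846487 with positions 1 and 10 in capitals, was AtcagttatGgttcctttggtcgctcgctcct. It had 0.10 RPM in the Dnmt3L KO and 0.58 RPM in the WT at 10 dpp, 98.5 RPM in the Miwi2 KO and 57.5 RPM in the WT, and at 16.5 dpc 343 RPM in the Dnmt3L KO and 406 RPM in the WT. It is 32 nt long, a length at which the Dnmt3L libraries of 10 dpp hold few reads of any kind. It was more frequent at 16.5 dpc than any read of the 3 loci.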
